A study of Homo sapiens with 9 samples.

Results

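Compact regions open in every library were short stretches of accessible chromatin that VCaP prostate cancer cells kept detectable under all conditions of the study. Peaks of 9 ATAC-seq libraries on chromosomes 1 to 22 and X were merged wherever they shared at least 1 bp. Of the 94773 merged regions, 33033 held a peak from all 9 libraries, and 2516 of these were at most 500 bp wide after merging. These 2516 compact regions made up 7.62% of the regions called in every library and 2.65% of all merged regions. They were chosen by the peak calls and by merged width, so both are given below as a description only.

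The libraries fell into 3 groups of 3, all from cells with the genotype label WT. VCaP16 is an enzalutamide-resistant derivative of VCaP grown with 16 µM of the drug. VCaP_ENZ is VCaP given 10 µM enzalutamide for 96 h, and VCaP_DMSO is VCaP given the solvent. All VCaP16 libraries came from cells in drug, so against VCaP_DMSO the effects of line and drug cannot be told apart, and the drug groups differ in dose as well. Nothing in the labels ties replicates to separate cultures, and p-values therefore reflect the spread among these libraries, which could be technical. The sources used here do not say whether VCaP16 is 1 clone.

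In ATAC-seq the transposase Tn5 cuts into DNA that nucleosomes leave exposed, and peaks are called where its insertions are dense. Narrow open sites often mark 1 element bound by transcription factors, while the open chromatin of active promoters can spread over several neighbouring elements. In prostate cells many distal open sites are bound by the androgen receptor together with pioneer factors such as FOXA1. Enzalutamide blocks the androgen receptor, and VCaP cells carry extra copies of its gene and make splice variants that lack the part the drug binds. The peak lists hold positions on hg19 and a score per peak, with no gene names. Without an hg19 genome, annotation or repeat map at hand, regions are named by position, no sequence is printed, and the cell type could not be checked against marker genes.

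The lists held 57315 to 68921 peaks in VCaP16, 53646 to 61744 in VCaP_ENZ and 53799 to 57677 in VCaP_DMSO. VCaP16 replicate 3 and VCaP_ENZ replicate 2 had the longest lists. Depth is unknown, as the lists give no reads. Score ranks were therefore taken within each library over the same 33033 regions. A rank percentile of 100 is the highest score, and each library's score for a region is that of its best peak.

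All 2516 compact regions held exactly 1 peak in each of the 9 libraries. The same was true of 88.6% of the 30517 wide regions, those over 500 bp called in every library. The limit of 500 bp leaves little room for more than 1 peak of a library, so the rule bears on this difference. Merged widths ran from 192 to 500 bp with a median of 435 bp and quartiles of 393 and 472 bp. The stretch covered by the peaks of all 9 libraries, here called the core, was 185 bp at the median, with quartiles of 156 and 229 bp. It took up 44.9% of the merged width at the median.

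The 9 peak midpoints of a compact region spread over 89.5 bp at the median, from lowest to highest, and over 148 bp at the 95th percentile of compact regions. In wide regions the midpoints spread over 168.5 bp at the median, and their core was 372 bp; both gaps follow in part from the width limit and were not tested. The narrowest compact region, chr1:77436910-77437101, was 192 bp wide with a core of 190 bp, and its peaks measured 191 or 192 bp in every library. Next were chr12:34838949-34839142 at 194 bp and chr5:71146742-71146942 at 201 bp. The last of these ranked high in all 9 libraries, between percentiles 97.1 and 99.3, while the region on chromosome 12 ranked low, between 2.31 and 21.1. Narrowness thus went with no 1 level of score.

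Around the limit, 242 regions of 491 to 500 bp had a median rank percentile of 31.9, and 266 regions of 501 to 510 bp had 38.3. The count of regions rose with width up to and past the limit, from 94 regions of at most 300 bp to 1017 of 451 to 500 bp and 1609 of 501 to 550 bp. Median ranks were 39.6 for regions of at most 300 bp, 31.2 for 301 to 400 bp, 35.7 for 401 to 450 bp and 32.5 for 451 to 500 bp. Just past the limit they were much the same, at 34.8 for 501 to 550 bp and 38.7 for 551 to 600 bp, below the 39.6 of the narrowest class. They were 42.4 for 601 to 800 bp, 53.1 for 801 to 1000 bp and 63.2 above 1000 bp. Across compact regions alone, width and median rank were almost unrelated (Spearman rho 0.0149 over 2516 regions, which share their libraries).

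**Figure D1:**
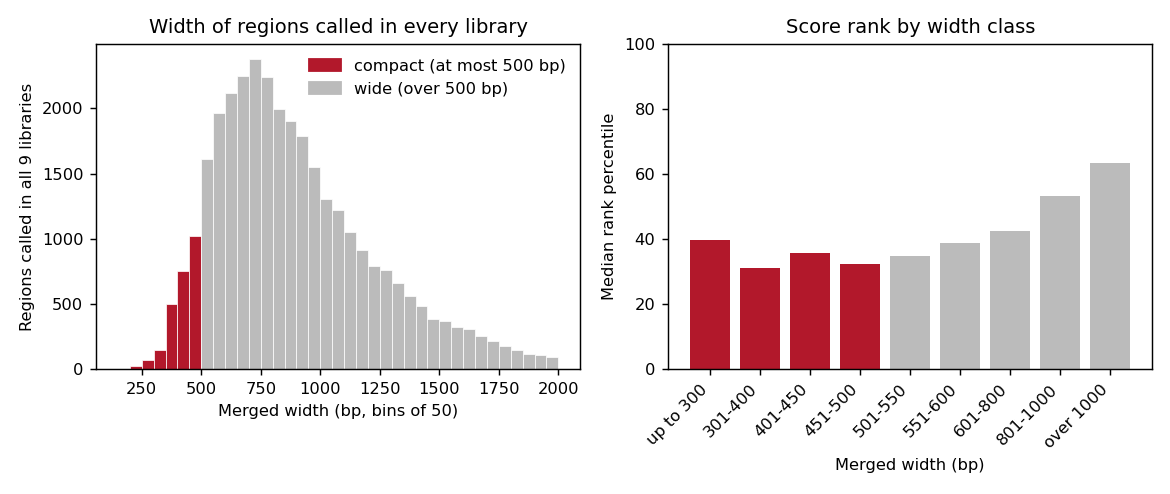
Left, number of regions called in all 9 libraries by merged width in bins of 50 bp up to 2000 bp, with compact regions in red and wide regions in grey. Right, median rank percentile of the score by width class, where compact classes lie between 31.2 and 39.6 and the class above 1000 bp reaches 63.2.

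Most short regions were not called in every library. Of 47380 merged regions of at most 500 bp, 21079 were called in a single library, 1583 in 8 and 2516 in all 9. Merging further peaks can only widen a region, so the width limit bears on these counts. A region that was not called may still be open. Regions called in 8 libraries lay just outside the rule. VCaP16 replicates 1 to 3 lacked 197, 191 and 55 of these, VCaP_ENZ replicates 248, 86 and 241, and VCaP_DMSO replicates 133, 201 and 231. The fewest were missing from the longest lists, those of VCaP16 replicate 3 and VCaP_ENZ replicate 2.

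Being open in every library did not mean a high rank among the regions called in all 9. The median rank percentile over the 9 libraries had a median of 33.2 over compact regions, with quartiles of 18.8 and 51.2. In wide regions it was 50.7, with quartiles of 26.9 and 75.3. In all, 1020 compact regions (40.5%) lay below percentile 50 in every library and 236 (9.38%) above it in every library. For wide regions these shares were 24.8% and 31.9%. Compact regions above percentile 90 in all 9 libraries numbered 17 (0.676%), against 5.82% of wide regions, and 10 were below percentile 10 in all 9. Width chose the regions, and the score is a value of the same peaks, so these shares were not tested. Within each library's whole list compact regions ranked higher. Their median percentile there ran from 56.5 in VCaP_DMSO replicate 2 to 66.5 in VCaP16 replicate 3.

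A handful of compact regions had some of the highest scores in every library. The region chr17:22020562-22020957 had scores of 1120 to 1329 and a rank percentile of 99.99 in each library. The region chr1:91852783-91853148 followed with scores of 297 to 499, and its peak was 366 bp wide in all 9 libraries. Behind them came chrX:108297357-108297831 with a median score of 236, chr11:85195011-85195277 with 210 and chr8:70602304-70602614 with 206. The lowest rank of any of these 5 in any library was percentile 99.8, and their cores, 254 to 461 bp, took up nearly all of their merged width. Their ranks hardly moved: the range over the 9 libraries was 0.003 percentile points for the region on chromosome 17 and 0.009 for that on chromosome 1. Whether they lie in repeated sequence, and whether such high scores reflect open chromatin there, was not tested.

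At the other end, chr21:33246117-33246567 had scores of 2.71 to 6.51, near the lowest in the lists. It lay 152 bp from the next merged region. The regions chr17:42856597-42856922, chr15:27508893-27509282, chr22:31432470-31432968 and chr13:111768424-111768762 had median rank percentiles of 0.713 to 1.24. The last of these ranged up to percentile 24.1, in VCaP16 replicate 1, so a low median did not mean a low rank in each library.

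Ranks of a typical compact region varied widely between libraries. The range over 9 libraries was 36.0 percentile points at the median, with quartiles of 27.7 and 44.2, against 31.3 points in wide regions. The widest range, 78.3 points, was found at chr8:102803119-102803531. It was followed by chr16:72057768-72058207 with 75.5 points and chr8:141106962-141107386 with 75.4 points. These 3 regions also differed between groups and are described further on.

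Compact regions lay somewhat closer to their neighbours than wide ones did. The distance from edge to edge to the nearest merged region was 6020.5 bp at the median for compact regions, with quartiles of 2635 and 13882 bp. It was 8055 bp for wide regions, with quartiles of 4214 and 15551 bp. A neighbour within 5000 bp was found for 44.2% of compact and 30.9% of wide regions. Below 1000 bp the order turned, with 7.51% of compact and 9.40% of wide regions. Merging joins close neighbours into wide regions, so the rule itself touches this distance and no test was made.

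The nearest neighbour was a region not called in all libraries for 1514 compact regions (60.2%), a wide region for 916 (36.4%) and another compact region for 86 (3.42%). These kinds made up 65.1%, 32.2% and 2.65% of all merged regions. Along the chromosomes, 2356 compact regions stood alone between regions of other kinds, 74 runs held 2 and 4 runs held 3. These counts were not compared with the 2.65% share of compact regions among all merged regions. A run of 3 on chromosome 4, between positions 1727945 and 1750674, had median rank percentiles of 43.2, 41.2 and 12.3. Another on chromosome 21, between positions 46548433 and 46560614, had 68.7, 43.5 and 97.4. The run on chromosome 2, between positions 135169444 and 135215721, had 24.7, 47.2 and 8.16, and that on chromosome 5, between positions 148761378 and 148819801, had 28.9, 16.1 and 24.1. Neighbouring compact regions could thus differ widely in rank.

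**Figure D2:**
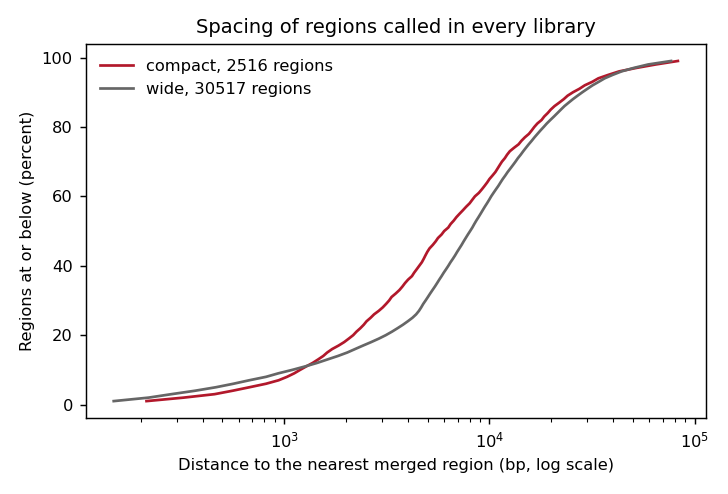
Share of regions, in percent, whose nearest merged region lies at or below a given distance in bp (log scale), for compact regions (red) and wide regions (grey) called in all 9 libraries, shown from the 1st to the 99th percent. The red curve lies left of the grey one over most of the range, with medians of 6020.5 and 8055 bp, and right of it at the shortest and longest distances.

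Some compact regions stood far from any other open site. The most isolated was chrX:108297357-108297831, one of the 5 top-ranked regions, with 317224 bp to the next merged region. The region chrX:4762350-4762824 was 296761 bp away from the next and ranked between percentiles 53.6 and 81.8. By contrast chr18:49417101-49417579, with 222323 bp, ranked between 0.972 and 49.6. Across compact regions distance and rank were almost unrelated (Spearman rho 0.0508 over 2516 regions, which share their libraries).

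Every chromosome held compact regions, from 45 on chromosome X to 250 on chromosome 1. As a share of the regions called in all 9 libraries they ran from 6.50% on chromosome 6 to 9.02% on chromosome 20, around the 7.62% of the whole set. Chromosomes 21 (8.95%), 17 (8.71%) and 18 (8.54%) came after chromosome 20. By number, chromosome 17 had 148 compact regions, 5.88% of all of them and 5.09% of wide regions. The median rank percentile of compact regions was lowest on chromosome 16 (23.2) and chromosome 22 (24.9) and highest on chromosome 17 (39.9). These are descriptions of 1 map shared by all libraries.

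The next question was whether compact regions as a set held another place in the resistant line or after short exposure. Their median rank percentile was 35.9, 35.3 and 35.3 in VCaP16, 33.3, 30.5 and 34.4 in VCaP_ENZ and 33.2, 32.6 and 35.6 in VCaP_DMSO. The VCaP16 libraries lay close together, above every VCaP_ENZ library and above all VCaP_DMSO libraries but replicate 3, and VCaP_ENZ replicate 2 was the lowest. Means were 35.5 ± 0.324 in VCaP16, 32.7 ± 1.97 in VCaP_ENZ and 33.8 ± 1.60 in VCaP_DMSO (SD, n = 3 each). VCaP16 exceeded the 6 VCaP libraries, at 33.3 ± 1.72, by 2.22 percentile points, with a two-sided exact permutation p of 0.0833 over 84 splits (0.643 after Benjamini-Hochberg adjustment over 12 tests). The exact permutation p over all 3 groups was 0.161. The gap was widest between VCaP16 and VCaP_ENZ, at 2.77 points and with no overlap (exact permutation p = 0.1, a test added after seeing the data and outside the 12). Against VCaP_DMSO the differences were 1.67 points for VCaP16 (exact p = 0.3) and -1.10 points for VCaP_ENZ (exact p = 0.6). Comparisons of 3 against 3 libraries allow no p below 0.1, so these cannot pass the threshold of 0.05, and the other tests did not pass it. Width chose the regions and the score is a value of the same peaks. The width limit can therefore bear on these differences and their p-values.

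The size of these differences depended on the setting. Ranked within each library's whole list, the median rank percentile of VCaP16 exceeded the 6 VCaP libraries by 4.25 points (exact permutation p = 0.0357, adjusted p = 0.429). It exceeded VCaP_ENZ by 4.21 points and VCaP_DMSO by 4.28 points. List length enters such a rank, and VCaP16 replicate 3, with the longest list, had the highest whole-list median, 66.5. With lists of equal length VCaP16 exceeded the 6 VCaP libraries by 2.28 points (exact permutation p = 0.0833). Of 17 alternatives for VCaP16 against the 6 VCaP libraries, 5 gave an unadjusted exact permutation p under 0.05, the lowest 0.0179 with 3.01 points without VCaP_DMSO replicate 3, and none an adjusted one, the lowest being 0.214. VCaP16 against VCaP_DMSO was at 2.79 points without VCaP_DMSO replicate 3 and 2.65 without VCaP16 replicate 3 and VCaP_ENZ replicate 2. It was at 0.23 points with a limit of 400 bp and 2.19 with 600 bp. VCaP_ENZ against VCaP_DMSO was at -2.87 points with a limit of 400 bp and -0.14 with 600 bp. It was at -0.07 points without VCaP_ENZ replicate 2, -1.76 and -1.84 without VCaP_ENZ replicate 1 or 3, -1.68 and -0.36 without VCaP_DMSO replicate 2 or 3, and -0.62 without VCaP16 replicate 3. It turned to 0.65 points when VCaP16 replicate 3 and VCaP_ENZ replicate 2 were both left out, and to 0.07 ranked within the whole list.

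Peak width at compact regions overlapped between the groups. The width limit that chose the regions also caps each peak in them, so these widths are given with no test. The median width was 303, 309 and 343 bp in VCaP16, 288, 319 and 282 bp in VCaP_ENZ and 321, 295 and 300.5 bp in VCaP_DMSO. The widest medians belonged to VCaP16 replicate 3, VCaP_DMSO replicate 1 and VCaP_ENZ replicate 2, 3 of the 4 longest lists. VCaP16 replicate 3 alone held the widest peak in 555 compact regions, and VCaP_ENZ replicate 3 held the narrowest in 445. Means were 318 ± 21.6 bp in VCaP16, 296 ± 19.9 bp in VCaP_ENZ and 306 ± 13.7 bp in VCaP_DMSO (SD, n = 3 each). The mean of VCaP16 was 17.4 bp above that of the 6 VCaP libraries, and 6.25 bp above it without VCaP16 replicate 3.

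The distance from a compact region to the next peak of the same library was 10154, 9892 and 8427 bp at the median in VCaP16, 10601, 9318 and 10482 bp in VCaP_ENZ, and 9541, 10448 and 10655 bp in VCaP_DMSO. The shortest spacings were those of VCaP16 replicate 3 and VCaP_ENZ replicate 2, with the longest lists. Merging and the width limit fix the edges these distances start from, so they bear on the spacing and its p-values below. Means were 9491 ± 931 bp in VCaP16, 10134 ± 709 bp in VCaP_ENZ and 10215 ± 592 bp in VCaP_DMSO (SD, n = 3 each; exact permutation p = 0.536). Spacing in VCaP16 was lower by 683 bp than the 10174 ± 586 bp of the 6 VCaP libraries (difference -683, exact permutation p = 0.238), and by 245 bp without VCaP16 replicate 3 (difference -245). Without VCaP16 replicate 1 the difference was -1059 bp. When each list was limited to its 53646 best peaks, the order turned. Means were then 10474 ± 201 bp in VCaP16, 10370 ± 145 bp in VCaP_ENZ and 10260 ± 389 bp in VCaP_DMSO (SD, n = 3 each).

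**Figure D3:**
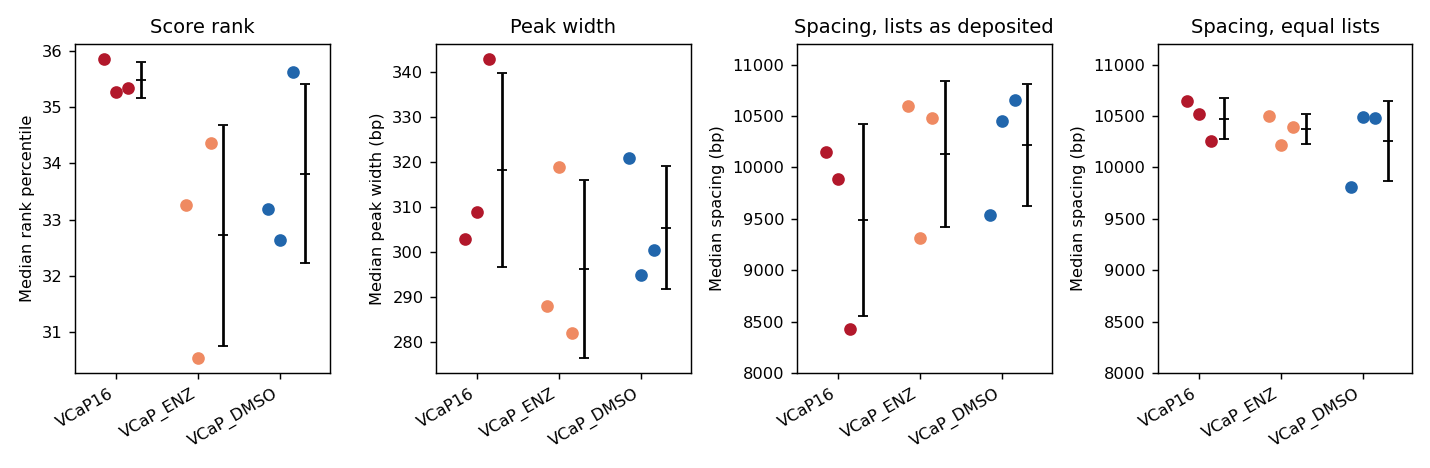
Median over compact regions in each library (points) for rank percentile, peak width in bp, and spacing in bp to the next peak of the same library, with lists as deposited and with lists of equal length; bars are group means with SD (n = 3), and no axis starts at 0. In the rank panel VCaP16, from 35.3 to 35.9, lies above VCaP_ENZ, from 30.5 to 34.4; groups overlap in all other pairs and panels, and the low spacing of 8427 bp in VCaP16 replicate 3 is gone with lists of equal length.

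The order of compact regions was more alike within groups than between them. The Spearman correlation of ranks over the 2516 compact regions averaged 0.728 for the 9 library pairs inside a group and 0.668 for the 27 pairs from different groups. They differed by 0.0594, and the two-sided exact permutation p was 0.00357, which 280 splits cannot go below. Within groups the mean was 0.745 in VCaP16, 0.704 in VCaP_ENZ and 0.735 in VCaP_DMSO. Between groups it was 0.662 for VCaP16 with VCaP_DMSO, 0.667 for VCaP_ENZ with VCaP_DMSO and 0.676 for VCaP16 with VCaP_ENZ. The lowest pair within a group, at 0.691, was in VCaP_ENZ, just below the highest pair between groups, at 0.695. Wide regions were also more alike within groups than between them, with higher values, 0.874 within and 0.839 between groups. The order of the group pairs differed there, with 0.846 for VCaP_ENZ with VCaP_DMSO above 0.840 for VCaP16 with VCaP_ENZ. The sources used here do not say whether groups were prepared or sequenced separately, so condition and preparation cannot be told apart.

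**Figure D4:**
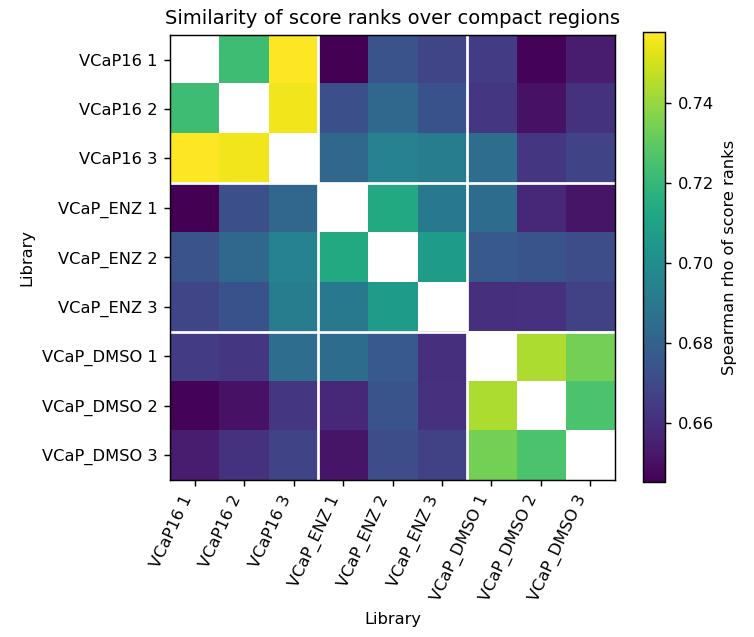
Spearman correlation of score ranks over the 2516 compact regions for each pair of libraries, ordered by group and replicate; the diagonal is left blank and white lines part the groups. Pairs within VCaP16 and within VCaP_DMSO stand out, with means of 0.745 and 0.735, against 0.668 between groups.

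Peak midpoints of compact regions are confined by the same width limit and were not tested. The median distance between the midpoints of 2 libraries averaged 25.2 bp for pairs inside a group and 25.4 bp for pairs from different groups, a difference of -0.13 bp.

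Ranks were then compared region by region to find which compact regions differed. Normal scores of the ranks were fitted with limma over all 33033 regions called in every library, and p-values were adjusted by Benjamini-Hochberg over all of them. In VCaP16 against VCaP_DMSO, 36 compact regions (1.43%) had a higher rank and 22 (0.874%) a lower one, where 1.84% and 0.999% of all tested regions were called. In VCaP_ENZ against VCaP_DMSO, 4 rose and 5 fell, with 0.351% and 0.176% of all regions called. In VCaP16 against VCaP_ENZ, 16 rose and 5 fell, with 0.621% and 0.575%. Against the 6 VCaP libraries together, 30 rose and 16 fell in VCaP16, with 1.44% and 1.15%. The shares of compact regions lay near those of all regions or below them. In all, 75 compact regions (2.98%) were called in at least 1 of the 3 pairwise comparisons and none in all 3. Comparisons share libraries and are not independent.

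The counts depended on the fit and on single libraries. Without a trend in limma's eBayes step, 14 rose and 5 fell in VCaP16 against VCaP_DMSO. In that fit 0 compact regions passed in either comparison with VCaP_ENZ, so each call of or against VCaP_ENZ below was lost there. At an unadjusted limma p under 0.05 it gave 133 higher and 192 lower in VCaP_ENZ against VCaP_DMSO, and 233 higher and 107 lower in VCaP16 against VCaP_ENZ. Without VCaP_DMSO replicate 2, 23 rose and 10 fell in VCaP16 against VCaP_DMSO, and 0 rose (117 at an unadjusted limma p under 0.05) and 1 fell in VCaP_ENZ. Without VCaP_DMSO replicate 1, 13 fell in VCaP16 and 3 in VCaP_ENZ, and 3 fell in VCaP_ENZ without VCaP_DMSO replicate 3 as well. Without VCaP_ENZ replicate 1, 0 rose in VCaP_ENZ (106 at an unadjusted limma p under 0.05), and without VCaP_ENZ replicate 3 it was 1. In VCaP16 against VCaP_ENZ, 5, 6 and 8 rose without VCaP16 replicates 1, 2 and 3, and 10 without VCaP_ENZ replicate 3. There 10 fell without VCaP16 replicate 1, 2 without VCaP_ENZ replicate 1 and 1 without VCaP_ENZ replicate 3. Against the 6 VCaP libraries, 18, 13 and 19 rose without VCaP16 replicates 1, 2 and 3, and 10 fell without VCaP16 replicate 3. Losses given below for named regions mostly concern single libraries and the eBayes trend, and other settings lost further calls.

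The spread of the whole set gives the scale for these calls. The median rank difference of compact regions, in normal scores, was 0.05 in VCaP16 against VCaP_DMSO, -0.04 in VCaP_ENZ against VCaP_DMSO and 0.10 in VCaP16 against VCaP_ENZ. Over all tested regions it was -0.02, -0.00411 and -0.00117. Groups without overlap were counted too. VCaP16 lay wholly above VCaP_DMSO in 279 compact regions (11.1%, against 10.1% of all regions) and wholly below in 190 (7.55%, against 9.80%). VCaP_ENZ lay wholly above VCaP_DMSO in 166 (6.60%, against 8.27%) and wholly below in 216 (8.59%, against 7.52%). VCaP16 lay wholly above VCaP_ENZ in 273 (10.9%, against 8.59%) and wholly below in 136 (5.41%, against 8.99%). VCaP16 lay above all 6 VCaP libraries in 118 (4.69%, against 3.70%) and below all 6 in 51 (2.03%, against 3.39%).

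The compact regions that rose in VCaP16 were led by chr17:36476348-36476835, 488 bp wide. Its rank percentile was 91.1, 81.5 and 86.0 in VCaP16, 31.0, 26.6 and 56.9 in VCaP_ENZ and 17.8, 34.4 and 32.5 in VCaP_DMSO. All VCaP16 libraries stood above all others, and the means were 86.2 ± 4.80 in VCaP16 and 28.2 ± 9.09 in VCaP_DMSO (SD, n = 3 each). The normal score rose by 1.70 ± 0.267 (SE) against VCaP_DMSO, with an adjusted p of 2.12e-05 in limma. It rose by 1.42 against VCaP_ENZ (adjusted p = 0.0012). That call was lost with VCaP16 replicate 3 and VCaP_ENZ replicate 2 both left out (limma adjusted p = 0.0798).

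The region chr7:105102025-105102459 showed the same pattern. Its rank percentile was 75.2, 85.9 and 75.9 in VCaP16, 36.2, 15.9 and 42.5 in VCaP_ENZ and 38.9, 20.6 and 29.6 in VCaP_DMSO. VCaP_ENZ and VCaP_DMSO overlapped, with means of 31.5 ± 13.9 in VCaP_ENZ and 29.7 ± 9.12 in VCaP_DMSO (SD, n = 3 each). The normal score rose by 1.37 in VCaP16 against VCaP_DMSO (limma adjusted p = 0.00152).

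In further regions the mean of VCaP_ENZ lay between those of the other groups. The rank percentile of chr8:141106962-141107386 was 81.0, 78.8 and 71.3 in VCaP16, 61.0, 25.8 and 38.8 in VCaP_ENZ and 5.61, 32.0 and 12.3 in VCaP_DMSO. That of chr11:111223875-111224361 was 60.9, 77.5 and 65.6 in VCaP16, 56.2, 31.4 and 28.9 in VCaP_ENZ and 21.4, 9.35 and 8.36 in VCaP_DMSO. Both rose in VCaP16 against VCaP_DMSO, by 1.82 (limma adjusted p = 5.69e-05) and by 1.64 (0.000427) in normal scores, while for VCaP_ENZ against VCaP_DMSO the limma adjusted p was 0.213 and 0.215. At chr11:92644578-92645048 the rank percentile was 70.3, 53.8 and 66.2 in VCaP16, 58.1, 70.1 and 33.0 in VCaP_ENZ and 10.2, 12.1 and 15.6 in VCaP_DMSO. There both drug groups rose against VCaP_DMSO, with limma adjusted p of 0.000903 for VCaP16 and 0.0293 for VCaP_ENZ. The VCaP_ENZ call was lost when any 1 VCaP_DMSO replicate, VCaP_ENZ replicate 1 or 2 or VCaP16 replicate 3 was left out, with adjusted p of 0.0512 to 0.17.

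Against the 6 VCaP libraries, 2 more compact regions were among the 5 clearest that rose. The region chr6:157137698-157138107 was already well ranked, at 93.7, 89.4 and 92.8 in VCaP16, 83.9, 76.8 and 74.9 in VCaP_ENZ and 70.7, 65.5 and 77.2 in VCaP_DMSO. The region chr22:33721138-33721635 was at 83.6, 71.2 and 60.0 in VCaP16, 38.2, 30.6 and 23.0 in VCaP_ENZ and 39.2, 21.3 and 29.1 in VCaP_DMSO. VCaP16 did not overlap the VCaP libraries in either, and the limma adjusted p was 0.00269 for the region on chromosome 6 and 0.00386 for that on chromosome 22. The first call was lost without the eBayes trend (adjusted p = 0.0764) and the second without VCaP16 replicate 1 (adjusted p = 0.104). The call on chromosome 6 was also lost with VCaP16 replicate 3 and VCaP_ENZ replicate 2 both left out (limma adjusted p = 0.0622).

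The compact regions that fell in VCaP16 were led by chr14:88237576-88237823, one of the narrowest at 248 bp. Its rank percentile was 69.0, 63.9 and 76.2 in VCaP16, 92.5, 90.8 and 93.1 in VCaP_ENZ and 85.4, 97.1 and 92.5 in VCaP_DMSO. It remained a well-ranked site in all libraries, and every VCaP16 library lay below every VCaP library. The normal score fell by 0.94 ± 0.174 (SE) against VCaP_DMSO (limma adjusted p = 0.00032) and by 0.89 against VCaP_ENZ (adjusted p = 0.00227). Without the eBayes trend its calls were lost, with a limma adjusted p of 0.0901 against VCaP_DMSO, 0.161 against VCaP_ENZ and 0.0725 against the 6 VCaP libraries.

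The region chr2:62957761-62958052 fell in VCaP16 in the same way. Its rank percentile was 17.9, 9.58 and 15.3 in VCaP16, 54.5, 54.7 and 51.8 in VCaP_ENZ and 46.4, 55.5 and 59.8 in VCaP_DMSO. Its mean was 14.3 ± 4.26 in VCaP16 (SD, n = 3) against 53.8 ± 4.43 over the VCaP libraries (SD, n = 6), with a limma adjusted p of 0.00341. Its 292 bp again place it among the narrower compact regions. At chr5:176040773-176041172 and chr12:6480159-6480612 the fall against the 6 VCaP libraries was less even, with VCaP16 percentiles of 56.7, 15.4 and 40.5 in the first and 10.6, 32.3 and 12.8 in the second. The means in the 6 VCaP libraries were 72.6 ± 9.53 and 54.3 ± 12 (SD, n = 6 each). The limma adjusted p was 0.00431 for the region on chromosome 5, and 0.145 without VCaP16 replicate 2. It was 0.0123 for that on chromosome 12, 0.101 without VCaP16 replicate 1 and 0.0881 without VCaP16 replicate 3. The region chr9:66971138-66971531 stood at 0.176, 17.1 and 9.97 in VCaP16 against 35.6 ± 8.45 in the 6 VCaP libraries (SD, n = 6; limma adjusted p = 0.0142), and lost its call without VCaP16 replicate 1 (adjusted p = 0.32). Without the eBayes trend the last 3 of these calls were lost, with adjusted p of 0.131 on chromosome 5, 0.0764 on chromosome 12 and 0.134 on chromosome 9. Leaving out both VCaP16 replicate 3 and VCaP_ENZ replicate 2 lost the calls on chromosomes 12 and 9 (limma adjusted p = 0.149 and 0.0607).

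At some compact regions both drug groups fell against the solvent. The rank percentile of chr16:72057768-72058207 was 29.6, 19.5 and 2.56 in VCaP16, 22, 2.85 and 5.43 in VCaP_ENZ and 78.1, 70.1 and 70.5 in VCaP_DMSO. The 6 libraries given the drug stood far below the 3 with the solvent. In normal scores it fell by 1.73 in VCaP16 (limma adjusted p = 0.00176) and by 2.04 in VCaP_ENZ (adjusted p = 0.00135). The call of VCaP16 was lost without VCaP16 replicate 3 (adjusted p = 0.0526) and without the eBayes trend (0.0659).

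The region chr4:75869294-75869791 had the same order. It was at 9.13, 37.4 and 5.11 in VCaP16, 20.5, 8.37 and 14.8 in VCaP_ENZ and 73.6, 70.8 and 66.8 in VCaP_DMSO. It fell by 1.63 in VCaP16 (limma adjusted p = 0.00173) and by 1.62 in VCaP_ENZ (adjusted p = 0.011). Its VCaP_ENZ call was lost without VCaP_DMSO replicate 1 (0.0557) or 2 (0.0641). These 2 comparisons share the VCaP_DMSO libraries, whose high ranks enter both.

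A stepwise order appeared at chr6:40682510-40683005, with 31.1, 51.7 and 54.5 in VCaP16, 62.8, 58.1 and 62.8 in VCaP_ENZ and 78.8, 86.5 and 84.3 in VCaP_DMSO. No groups overlapped there. It fell by 1.08 in VCaP16 against VCaP_DMSO (limma adjusted p = 0.00206). Neither step was called by limma, that of VCaP_ENZ against VCaP_DMSO or that of VCaP16 against VCaP_ENZ. At chr8:102803119-102803531, the region with the widest range of ranks, VCaP_ENZ was scattered. There the percentile was 17.9, 42.9 and 3.41 in VCaP16, 69.9, 22.9 and 57.5 in VCaP_ENZ and 71.3, 71.9 and 81.7 in VCaP_DMSO (limma adjusted p = 0.000463 for VCaP16 against VCaP_DMSO, and 0.0971 without the eBayes trend).

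**Figure D5:**
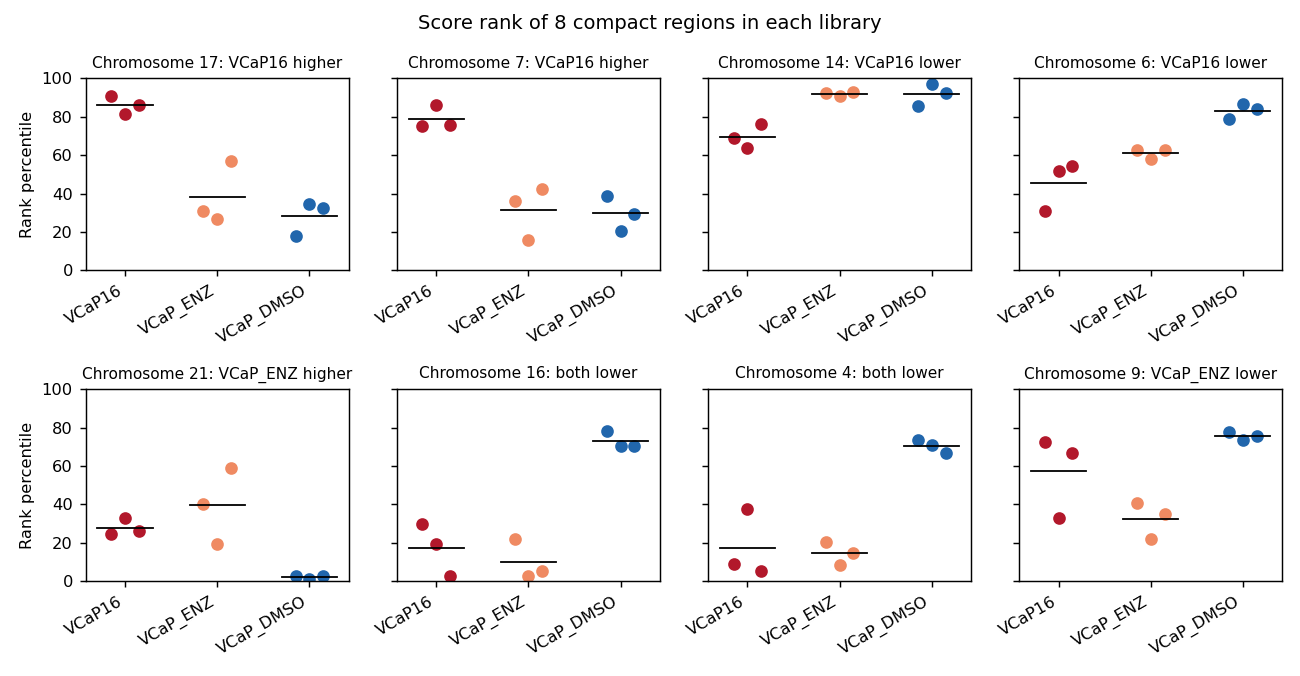
Rank percentile (100 is the highest score) of 8 compact regions, 1 panel each, in the 3 libraries of each group (points) with the group mean (line). The region on chromosome 17 has a mean of 86.2 in VCaP16 and 28.2 in VCaP_DMSO, while those on chromosomes 16 and 4 are low in both drug groups, with means of 72.9 and 70.4 in VCaP_DMSO.

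Few compact regions differed after short exposure. The region chr21:47266561-47266976 was at 40.4, 19.3 and 58.9 in VCaP_ENZ and 24.4, 32.7 and 26.1 in VCaP16, against 2.78, 1.29 and 2.82 in VCaP_DMSO. With the solvent it ranked among the lowest of the regions called in every library. It was higher in VCaP_ENZ by 1.72 ± 0.379 (SE) in normal scores (limma adjusted p = 0.0161). The region chr2:54587219-54587661 was at 56.8, 35.2 and 61.3 in VCaP_ENZ and 49.6, 57.0 and 50.1 in VCaP16, against 15.8, 5.39 and 6.72 in VCaP_DMSO (limma adjusted p = 0.0202 for VCaP_ENZ). VCaP16 rose against VCaP_DMSO in both, with limma adjusted p of 0.0215 and 0.00377. Both VCaP_ENZ calls were lost without VCaP_ENZ replicate 1 or 3 or VCaP_DMSO replicate 2, with adjusted p of 0.0745 to 0.142, and the second also without VCaP_DMSO replicate 3 (0.0658). The region chr10:98035783-98036217 had a mean of 55.2 ± 2.96 in VCaP_ENZ and 16.4 ± 19.3 in VCaP_DMSO (SD, n = 3 each; limma adjusted p = 0.0433), with VCaP_DMSO replicate 3 at 38.4. Its call was lost without VCaP_DMSO replicate 1 or 2, any 1 VCaP_ENZ replicate, or VCaP16 replicate 1 or 3, with adjusted p of 0.0513 to 0.261.

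Beside the regions on chromosomes 16 and 4, 3 compact regions fell with short exposure. The region chr9:21392234-21392641 was at 40.7, 21.8 and 35.0 in VCaP_ENZ and 72.4, 32.9 and 66.6 in VCaP16, against 77.9, 73.8 and 75.3 in VCaP_DMSO (limma adjusted p = 0.0195 for VCaP_ENZ). The region chr6:21325550-21325954 was at 25.7, 27.6 and 43.6 in VCaP_ENZ and 65.1, 74.3 and 74.4 in VCaP_DMSO (limma adjusted p = 0.0433). In both, VCaP16 was scattered. The first call was lost without any 1 VCaP_DMSO replicate or VCaP_ENZ replicate 2 (adjusted p of 0.0701 to 0.0851). The second was lost without any 1 replicate of VCaP_DMSO or VCaP_ENZ or VCaP16 replicate 3 (0.0511 to 0.197). The region chr1:156186231-156186649, one of the 17 above percentile 90 in all libraries, moved little, with means of 93.5 ± 1.80 in VCaP_ENZ and 97.7 ± 1.74 in VCaP_DMSO (SD, n = 3 each; limma adjusted p = 0.0459). That call was lost without VCaP_DMSO replicate 2 (adjusted p = 0.535), VCaP_ENZ replicate 1 (0.211) or 3 (0.165), or VCaP16 replicate 3 (0.0676).

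Last, the resistant line was set against short exposure. Besides the regions on chromosomes 17 and 7, the clearest rise was at chr9:117300537-117301013, with 98.0, 96.9 and 97.1 in VCaP16, 91.1, 92.4 and 89.1 in VCaP_ENZ and 94.5, 91.8 and 94.9 in VCaP_DMSO. It was strong in every library, and its rise of 0.60 in normal scores (limma adjusted p = 0.00938) is 6.45 percentile points. The region chr8:106228512-106228955, 82557 bp from the next merged region, ranked low except in VCaP16. It was at 28.2, 44.7 and 51.1 in VCaP16, 2.04, 1.30 and 5.73 in VCaP_ENZ and 12.6, 5.39 and 9.84 in VCaP_DMSO (limma adjusted p = 0.0134 against VCaP_ENZ). At chr14:24900858-24901256 VCaP_ENZ stood low, with a mean of 55.8 ± 16.5 in VCaP16 and 12 ± 2.29 in VCaP_ENZ, and 39.5 ± 6.91 in VCaP_DMSO (SD, n = 3 each; limma adjusted p = 0.0171 against VCaP_ENZ). The first of these calls was lost without VCaP16 replicate 1 (0.0694) or VCaP_ENZ replicate 3 (0.0593), the second without VCaP16 replicate 2 or 3 or VCaP_ENZ replicate 1 or 2 (0.0544 to 0.0983), and the third without VCaP16 replicate 1 or 3 or VCaP_ENZ replicate 1 or 3 (0.0565 to 0.133). The call of the region on chromosome 7 against VCaP_ENZ was lost without VCaP16 replicate 2 (0.0649) or VCaP_ENZ replicate 2 (0.0531). It was also lost with VCaP16 replicate 3 and VCaP_ENZ replicate 2 both left out (limma adjusted p = 0.13).

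In the other direction, 2 regions ranked higher in each VCaP_ENZ library than in any other. The region chr9:97454826-97455309 was at 20.7, 2.53 and 0.994 in VCaP16, 38.8, 36.4 and 54.9 in VCaP_ENZ and 8.87, 17.1 and 15.4 in VCaP_DMSO. The region chr14:49765808-49766170 was at 1.49, 1.99 and 0.229 in VCaP16, 28.4, 26.1 and 20.7 in VCaP_ENZ and 0.972, 6.87 and 3.31 in VCaP_DMSO. Both fell in VCaP16 against VCaP_ENZ (limma adjusted p = 0.0303 and 0.0396), and both calls depended on which libraries were kept. The first was lost without any 1 VCaP_ENZ replicate or VCaP16 replicate 2 or 3 (adjusted p of 0.0621 to 0.186), the second without any 1 replicate of either group (0.0729 to 0.182). Against VCaP_DMSO, VCaP_ENZ did not pass in either (0.317 and 0.24). The regions chr14:88237576-88237823, chr5:176040773-176041172 and chr2:62957761-62958052 completed the 5 that fell. On chromosome 5 the call against VCaP_ENZ was lost without VCaP16 replicate 2 or VCaP_ENZ replicate 1 or 3 (0.104 to 0.15), and on chromosome 2 without VCaP16 replicate 2 or 3 or any 1 VCaP_ENZ replicate (0.061 to 0.101).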

How the data were processed

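ATAC-seq was run on 9 libraries of VCaP and VCaP16 cells. Per the labels' protocols, bulk cells were crosslinked before tagmentation; the text also describes a single-cell preparation, and the lists were treated as bulk. The genome build hg19 and the tools MACS2 2.2.7.1, HOMER 3.12 and BWA 0.7.15-r1140 come from the submitters' processing notes, which give no roles or settings; the sources used here do not describe read filtering or Tn5 shifting. The deposited files are 1 peak list per library. Their score column behaved like a −log10 scale with a floor of 2.00, and whether a p-value or a q-value lies behind the deposited score is not stated. It is the authors' value, moves with depth, and was used only to rank peaks within a library.

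Coordinates are on hg19, counted from 1. Peaks were merged at 1 bp overlap (Python 3.11.15, numpy 2.4.6, pandas 2.3.3), and the number of merged regions was checked with bedtools 2.31.1. Library medians went into exact permutation tests, two-sided, with 280 splits for 3 groups and 84 for 3 against 6 libraries, adjusted over 12 tests; 4 of these, on peak width, and a test of midpoints are not reported, since the width limit bears on both. Spacing is the distance to the nearest peak of the same library outside the region. Ranks over the 33033 shared regions, as normal scores, were fitted with limma 3.58.1 in R 4.3.3 (group means, eBayes with trend, Benjamini-Hochberg threshold 0.05) after a test on simulated data. Named are the 5 compact regions with the highest and the lowest median rank, the 3 narrowest, the 3 most isolated, those with the 3 smallest and 3 largest ranges of rank, the longest runs, and per comparison and direction the 5 with the smallest adjusted p whose groups do not overlap. Members and lists were chosen with earlier results of these data known. Alternatives are in the closing section.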

Additional observations from a re-analysis of the deposited data

How the results depend on the processing

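Every alternative listed was run, and the setting that drops VCaP16 replicate 3 and VCaP_ENZ replicate 2, the longest lists, was chosen after seeing the data. In all, 1732 values were recomputed; no difference at a named region changed sign, and a named region's call was lost in 130 of these. The number of compact regions was 745 with a limit of 400 bp, 6093 with 600 bp, 1299 when peaks had to cover 50% of the region, and 2897 to 3082 with 1 library left out. With lists of equal length the spacing differences turned to 159 bp for VCaP16 against the 6 VCaP libraries, 214 bp for VCaP16 against VCaP_DMSO, 104 bp for VCaP16 against VCaP_ENZ and 110 bp for VCaP_ENZ against VCaP_DMSO. The last was 29.3 bp with a minimum score of 5, and 327 bp with both long lists dropped. The rank difference of VCaP_ENZ against VCaP_DMSO turned to 0.0689 points when ranked within the whole list and 0.645 with both long lists dropped. The midpoint difference was -0.537 bp with 600 bp and 0.0556 bp with 50% overlap; the width limit confines it, so its tests are void. The causes were not tested.

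Counts of compact regions called by limma are given as higher and lower. Without the eBayes trend they were 14 and 5 for VCaP16 against VCaP_DMSO, 11 and 5 against the 6 VCaP libraries, and 0 and 0 for each comparison with VCaP_ENZ (unadjusted counts stand in the report). With 400 bp they were 3 and 10, 0 and 0 (28 and 53 at an unadjusted p under 0.05) for VCaP_ENZ against VCaP_DMSO, 2 higher for VCaP16 against VCaP_ENZ, and 3 and 7 against the 6. With 600 bp, in the same order, they were 112 and 51, 18 and 15, 39 and 17, and 86 and 47. With 50% overlap they were 21 and 13, 2 and 1, 5 and 3, and 19 higher; the wider or stricter rule changes how many regions can be called. For VCaP_ENZ against VCaP_DMSO, 8 were higher on log2 scores, and 2 lower both when ranked among compact regions alone and with both long lists dropped. For VCaP16 against VCaP_ENZ, 8 were lower on log2 scores, 3 higher when ranked alone and 4 higher with both long lists dropped. Against the 6, 11 were higher when ranked alone and 17 with both long lists dropped.

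With 1 library left out, VCaP16 against VCaP_DMSO gave 23 to 46 higher and 10 to 27 lower, VCaP_ENZ against VCaP_DMSO 0 to 5 and 1 to 7, VCaP16 against VCaP_ENZ 5 to 18 and 1 to 10, and VCaP16 against the 6 VCaP libraries 13 to 34 and 10 to 21. The VCaP_ENZ spacing difference ran from -290 to 336 bp, the midpoint difference from -0.536 to 0.0714 bp and the similarity difference from 0.0510 to 0.0686.

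Same-numbered libraries shared little of their deviation from their group means, with correlations of -0.0126 to 0.0594 over 9 pairs. Pairs with different numbers were not set beside them, so whether replicate numbers pair the libraries was not tested. With the replicate number as a block the counts were 39 and 23 for VCaP16 against VCaP_DMSO, 5 and 5 for VCaP_ENZ against VCaP_DMSO, 18 and 7 for VCaP16 against VCaP_ENZ, and 31 and 19 against the 6. In the block test over 36 splits the rank similarity had an exact permutation p of 0.0278. Depth is unknown, so a region missing from a list may be open below its threshold.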
